A study of Mus musculus with 10 samples.

Results

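Positron emission tomography of the inflamed brain relies on tracers for a small set of proteins, and the transcripts of 5 of them were followed here: Tspo, Maob, P2rx7, Ptgs1 and Ptgs2. The 5 rows were taken from the deposited table of 35275 genes by gene name. The set was chosen by the use of these proteins as imaging targets, with the FPKM difference between the genotypes in the same 10 libraries already known, so the members' own differences are described without a test. Motor cortex of 22-day-old C57BL/6 mice was the source of the RNA. There were 5 wild-type mice (WT1 to WT5) and 5 mice with a conditional knockout of membralin in astrocytes (KO1 to KO5), and no other allele or agent is named for either group. The promoter that drives the deletion is not given in the sources used here, and cells other than astrocytes keep the gene in such a design. Levels are fragments scaled to gene length and to library size (FPKM), which set genes side by side per length, and each value covers the whole tissue, so fewer cells of a type and less RNA per cell cannot be told apart.

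Tspo encodes the translocator protein of the outer mitochondrial membrane, which binds cholesterol and the benzodiazepine-like ligands from which its tracers derive. In brain it is known as a marker of activated microglia, and it is also made by astrocytes and endothelium. Maob encodes monoamine oxidase B, a mitochondrial enzyme of astrocytes and serotonergic neurons that breaks down amines. P2rx7 encodes an ion channel that opens at high extracellular ATP and triggers release of interleukin-1 from myeloid cells. Ptgs1 and Ptgs2 encode the cyclooxygenases COX-1 and COX-2, which turn arachidonic acid into the precursor of all prostaglandins. COX-1 is the constitutive form and in brain is found in microglia, while COX-2 is inducible and is present at rest in excitatory neurons.

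The libraries held between 22793058 and 28827871 fragments. Membralin is encoded by Tmem259, which measured 25.5, 23.8, 25.0, 32.4 and 30.4 FPKM in WT1 to WT5 and 20.1, 18.5, 34.4, 16.9 and 26.2 FPKM in KO1 to KO5. The library labelled KO3 thus had the highest value of all, against its label for this gene, and KO5 lay among the WT libraries. Cells other than astrocytes keep the gene in whole tissue, so these values do not show whether astrocytes of a mouse lost it. The difference in Tmem259 did not pass an exact two-sided permutation test of the means (p = 0.262, and 0.0556 without the library labelled KO3). That library is part of every direction given here except where a value without it is named. Excitatory neuron markers, which define cortex, summed to between 807 and 912 FPKM in WT and between 821 and 1048 FPKM in KO. Markers of the olfactory bulb were also present, with a sum of 4.13 to 27.2 FPKM in WT and 11.5 to 59.6 FPKM in KO, and thus moved in part with genotype. Each group had 2 libraries with Y-linked transcripts and 3 without, which bears on Maob because it lies on the X chromosome.

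Tspo (ENSMUSG00000041736, chromosome 15, 83563573 to 83574201, plus strand, mm10) was the imaging target with the widest separation of the groups. It measured 1.61, 1.58, 2.57, 1.78 and 2.38 FPKM in WT1 to WT5. In KO1 to KO5 it measured 4.93, 4.39, 3.44, 6.60 and 5.35 FPKM. The groups did not overlap: all KO values exceeded all WT values, with KO4 highest and the library labelled KO3 lowest among the KO. The WT mean was 1.99 ± 0.46 and the KO mean 4.94 ± 1.17 FPKM (SD, n = 5 each), a ratio of 2.49 and a difference of 0.98 on the log2(FPKM + 1) scale (SE 0.14). Leaving out the library labelled KO3 raised the KO mean to 5.32 ± 0.94 FPKM (SD, n = 4), 2.68 times the WT mean.

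**Figure D1:**
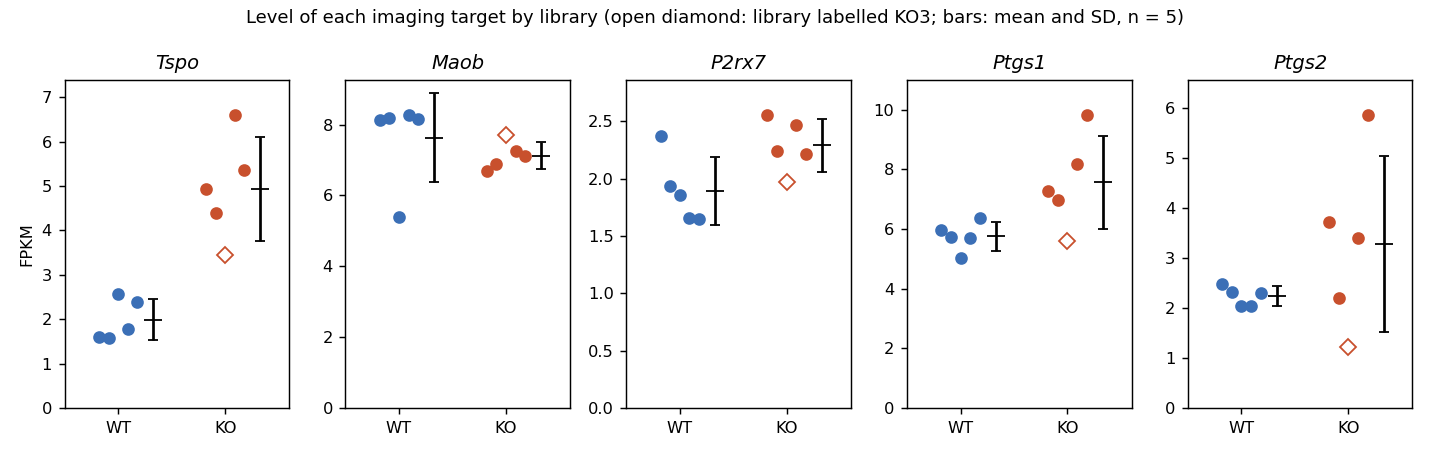
FPKM of the 5 imaging targets in each library, WT in blue and KO in red, with the library labelled KO3 as an open diamond and the mean and SD of each group (n = 5) as bars. The Tspo groups do not overlap, 4 of 5 WT values of Maob sit above all KO values, and Ptgs2 spreads from 1.21 to 5.86 FPKM in KO.

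Tspo is a short transcript with few fragments, and that limits single libraries. The WT values rest on 38 to 50 fragments and the KO values on 68 to 137. Exact Poisson 95% intervals, which cover counting error only, ran from 2.67 to 4.36 FPKM in the library labelled KO3 and from 1.91 to 3.39 FPKM in WT3, the highest WT library, so these 2 libraries were not separated at this depth. The coefficient of variation between mice was 23.1% in WT and 23.7% in KO, and counting alone would give 15.3% in WT. The gene shares 53 of its 1051 annotated exon bases with Mcat on the opposite strand. Mcat, a mitochondrial transacylase, itself rose from 6.57 ± 0.75 to 8.15 ± 0.77 FPKM (SD, n = 5 per group, log2 difference 0.27, limma adjusted p = 0.0454), and its part in the reads of Tspo was not tested. The relative Tspo2 had 1 fragment in WT3, 3 in KO1 and 0 in every other library, and no sequence word of 50 bases was shared between transcripts of Tspo and Tspo2.

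The library labelled KO3 differed from the other KO libraries in how the imaging targets sat against markers of reactive astrocytes. Gfap, the filament protein of astrocytes, measured 106 FPKM in it, within the WT range of 79.4 to 114 FPKM, while it measured 426 to 673 FPKM in the other KO libraries. Of the other tested markers of that list, Serpina3n and Osmr were also within their WT range in it, at 3.43 and 0.85 FPKM. Vim at 16.2 and Cd44 at 1.01 FPKM were above their highest WT values of 15.2 and 0.92 FPKM, and below the other KO libraries. Among the imaging targets, Ptgs1 and P2rx7 in that library were within the WT range. Tspo at 3.44 FPKM was above that range, and Ptgs2 at 1.21 FPKM was below it.

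Of the partners of the translocator protein, 16 of 17 listed genes passed the filter of a mean of at least 0.5 FPKM, and 5 rose and 1 fell in KO by limma with Benjamini-Hochberg adjustment over all genes. Their median difference was 0.13 on the log2 scale, against 0.08 for all tested genes. The share called was 37.5%, against 13.3% of all tested genes, and none of the pathway lists was tested as a set. Dbi, whose peptide product is an endogenous ligand of the translocator protein, rose from 61.6 ± 7.70 to 99.1 ± 24.4 FPKM (SD, n = 5 each; log2 difference 0.65, SE 0.15, limma adjusted p = 0.0227). Dbi was higher in all 5 KO libraries than in any WT library. Slc25a5, an adenine nucleotide carrier of the inner mitochondrial membrane, rose by 0.27 (limma adjusted p = 0.0186) and Atad3a, a mitochondrial membrane ATPase, also by 0.27 (limma adjusted p = 0.0206). Vdac1 and Vdac3, channels of the outer membrane, were the other 2 that rose. Tspoap1, which the table lists as Bzrap1, fell from 39.3 ± 2.89 to 28.4 ± 3.13 FPKM (SD, n = 5 per group), with a log2 difference of -0.45 and a limma adjusted p of 0.0180. Its product was named for binding the translocator protein and is also known as a scaffold of presynaptic active zones. Without the library labelled KO3, 6 of these genes were called higher and 2 lower, in a fit that also called more of all tested genes (26.0% against 13.3%), as holds for the same count in each list that follows.

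Maob (ENSMUSG00000040147, chromosome X, 16709282 to 16817366, minus strand) did not follow Tspo. It measured 8.14, 8.20, 5.39, 8.27 and 8.15 FPKM in WT1 to WT5, where WT3 stood far below 4 nearly equal values. In KO1 to KO5 it measured 6.68, 6.89, 7.70, 7.25 and 7.12 FPKM. All KO values therefore lay between WT3 and the other WT libraries. The WT mean was 7.63 ± 1.26 and the KO mean 7.13 ± 0.39 FPKM (SD, n = 5 each), and the log2 difference was -0.07 (SE 0.10). Without WT3 the log2 difference was -0.18, and a fit with the mean olfactory bulb marker level as covariate gave 0.07, so its sign depends on that covariate. WT3 was also the WT library with the highest sum of olfactory bulb markers, 27.2 FPKM, and its part in the low value was not tested. Markers of serotonergic neurons, another source of the enzyme, were near 0, with a sum of at most 0.97 FPKM in any library.

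The paralog Maoa, which encodes monoamine oxidase A and neighbours Maob on the X chromosome, moved differently. It measured 6.10, 5.95, 6.29, 6.54 and 6.23 FPKM in WT1 to WT5 and 7.99, 8.08, 6.56, 9.18 and 9.02 FPKM in KO1 to KO5. Maoa rose with a log2 difference of 0.34 (SE 0.08) and a limma adjusted p of 0.0234, and the groups did not overlap. The library labelled KO3 cleared the highest WT library only narrowly. The ratio of Maob to Maoa was above 1 in 4 of 5 WT libraries and in 1 of 5 KO libraries. It averaged 1.23 ± 0.21 in WT and 0.89 ± 0.16 in KO (SD, n = 5 each), with WT3 at 0.86 and the library labelled KO3 at 1.17 as the 2 exceptions. Transcripts of the 2 genes shared no word of 50 bases.

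**Figure D2:**
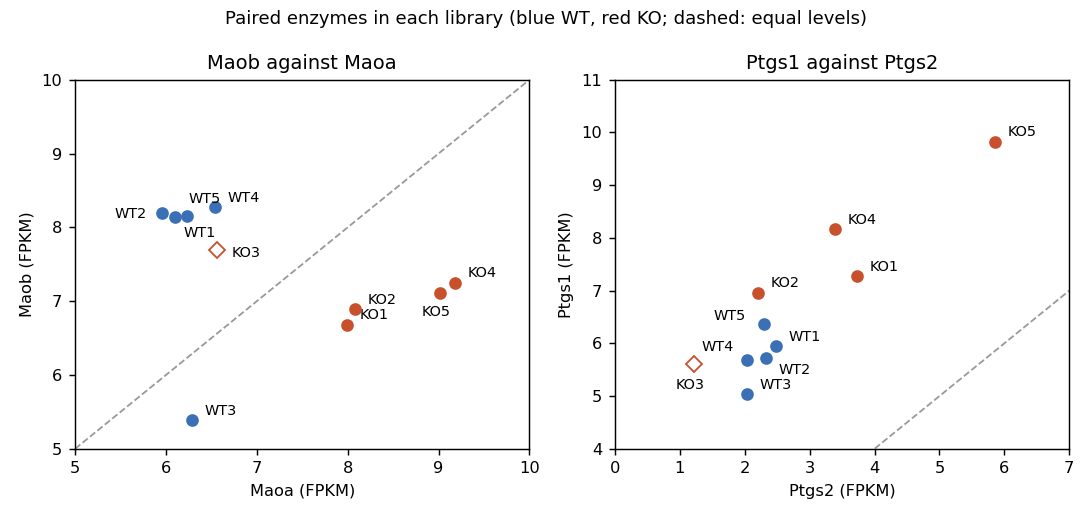
Maob against Maoa (left) and Ptgs1 against Ptgs2 (right) in FPKM, 1 point per library, WT in blue, KO in red, the library labelled KO3 as an open diamond, dashed line at equal levels. On the left 4 WT libraries and the library labelled KO3 lie above the line, and WT3 and 4 KO libraries lie below it. On the right every library lies above the line.

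Among 13 tested genes of monoamine and polyamine breakdown, out of 14 listed, 5 rose and 1 fell, with a median log2 difference of 0.16. The share called was 46.2%, against 13.3% of all tested genes. Aldh1a1, an aldehyde dehydrogenase that acts on retinal and on the aldehydes left by monoamine oxidases, had the lowest p and fell from 20.5 ± 6.01 to 9.56 ± 1.59 FPKM (SD, n = 5 each; log2 difference -0.996, SE 0.17, limma adjusted p = 0.0180). Its level was 7.36 FPKM in the library labelled KO3, the lowest of the 10, and all KO libraries were below all WT libraries. Aldh3a2, a fatty aldehyde dehydrogenase, rose by 0.27 (limma adjusted p = 0.0280). It did not pass with median-of-ratios scaling (limma adjusted p = 0.0897), under which the list had 2 called genes. Odc1 and Sat1, enzymes of polyamine synthesis and acetylation, also rose. Without the library labelled KO3 the list had 6 genes higher and 1 lower.

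P2rx7 (ENSMUSG00000029468, chromosome 5, 122643911 to 122691432, plus strand) had the lowest mean level of the 5 targets in both groups. It measured 2.37, 1.93, 1.86, 1.66 and 1.65 FPKM in WT1 to WT5 and 2.56, 2.24, 1.98, 2.47 and 2.21 FPKM in KO1 to KO5. The groups overlapped because WT1 was high, and only KO1 and KO4 were above it. The means were 1.89 ± 0.30 and 2.29 ± 0.23 FPKM (SD, n = 5 each), and the log2 difference was 0.19 (SE 0.08). The same difference was 0.12 with median-of-ratios scaling and 0.25 without WT1.

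The promoters of P2rx7, Ptgs1 and Ptgs2 are shown because these members had an entry, and they let the 2 cyclooxygenases be set side by side. Sequences are the 250 bases before the annotated start from RefSeq, build GRCm38.p6, and 3 of the 5 genes had an entry. RefSeq starts P2rx7 at 122643927, inside the gene as the table gives it, and lists a second start for it at 122650383, whose window is not shown. The windows searched were these bases plus the first 50 after the start. Capitals mark matches to SP1 (GGGCGG), AP-1 (TGANTCA) and PU.1 (GAGGAAGT), sought on both strands, and SP1 matches on the other strand read CCGCCC.
P2rx7, chr5:122643677-122643926, plus strand: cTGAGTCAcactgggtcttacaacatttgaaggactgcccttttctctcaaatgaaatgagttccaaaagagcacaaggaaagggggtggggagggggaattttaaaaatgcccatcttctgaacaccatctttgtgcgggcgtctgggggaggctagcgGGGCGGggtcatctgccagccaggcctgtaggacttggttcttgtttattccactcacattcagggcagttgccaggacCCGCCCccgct
Ptgs1, chr2:36230176-36230425, plus strand: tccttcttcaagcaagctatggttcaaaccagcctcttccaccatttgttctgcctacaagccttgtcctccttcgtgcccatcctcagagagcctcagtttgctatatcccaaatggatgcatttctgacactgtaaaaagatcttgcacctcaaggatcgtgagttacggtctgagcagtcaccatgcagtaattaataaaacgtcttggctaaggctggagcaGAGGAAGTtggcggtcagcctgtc
Ptgs2, chr1:150099781-150100030, plus strand: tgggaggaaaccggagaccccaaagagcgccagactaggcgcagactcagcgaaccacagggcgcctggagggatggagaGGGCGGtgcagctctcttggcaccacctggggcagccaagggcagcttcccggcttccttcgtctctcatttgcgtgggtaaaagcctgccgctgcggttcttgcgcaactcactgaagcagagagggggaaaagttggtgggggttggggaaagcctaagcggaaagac

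The letters of the PU.1 motif, named for a factor of myeloid cells, began 24 bases before the start of Ptgs1. The same letters were in 3.20% of 32851 windows of this kind. P2rx7 held an AP-1 match and 2 SP1 matches, and such letters were in 7.81% and 35.7% of windows. Ptgs2 held 1 SP1 match. The window of the second P2rx7 start held PU.1 letters on the minus strand just after that start. Letters of a full cAMP response element (TGACGTCA), ISRE (GAAANNGAAA), GAS (TTCNNNGAA), TATA box (TATAAA) and the NF-kB consensus were in none of the windows. A shorter form of the cAMP response element, TGACG, was searched after the sequences had been seen and was in 20.8% of windows. Ptgs2 had it on the minus strand shortly after the annotated start, shown here with 10 bases on each side and the match in capitals as it reads on the gene's strand.
Ptgs2, chr1:150100034-150100058, plus strand: gtcaccactaCGTCAcgtggagtcc

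Genes around P2rx7 in extracellular ATP signalling were called in both directions, as were all tested genes (1417 higher and 509 lower). Of 14 tested, out of 19 listed, 3 rose and 1 fell, with a median log2 difference of 0.13. The share called was 28.6%, against 13.3% of all tested genes. P2ry1, a receptor for ADP, rose from 1.55 ± 0.27 to 2.67 ± 0.49 FPKM (SD, n = 5 each; log2 difference 0.52, limma adjusted p = 0.0186). Nt5e, the ectoenzyme CD73 that makes adenosine from AMP, rose by 0.49 (limma adjusted p = 0.0227). Panx1, a channel that releases ATP, rose by 0.43 (limma adjusted p = 0.0331), and its relative Panx2 fell by 0.29 (limma adjusted p = 0.0356). With median-of-ratios scaling Panx1 did not pass (limma adjusted p = 0.0533). P2rx4, the relative of P2rx7 in microglia, measured 3.60 ± 0.22 in WT against 3.89 ± 0.24 FPKM in KO and did not pass (limma adjusted p = 0.339). The list had 5 genes higher and 1 lower without the library labelled KO3.

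Downstream of P2rx7, the inflammasome and interleukin-1 list was mostly low or did not pass. Of 16 listed genes 10 were tested, 1 rose and 1 fell, with a median log2 difference of 0.10. The 2 called of 10 tested were a larger share than the 13.3% of all tested genes. Pycard, the adaptor ASC that joins sensors to caspase-1, rose from 0.985 ± 0.168 to 1.97 ± 0.305 FPKM (SD, n = 5 each; log2 difference 0.58, SE 0.09, limma adjusted p = 0.0180) with no overlap of the groups. Il1rap, a subunit of the interleukin-1 receptor, fell by 0.29 (limma adjusted p = 0.0240). Nlrp3, the sensor that acts after P2rx7, was under the filter, with 21 to 32 fragments in WT libraries and 22 to 48 in KO libraries. Il1b, the cytokine itself, had 2 to 10 fragments in WT and 1 to 7 in KO and was likewise under the filter and not tested.

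Ptgs1 (ENSMUSG00000047250, chromosome 2, 36230426 to 36252272, plus strand) measured 5.95, 5.72, 5.03, 5.69 and 6.38 FPKM in WT1 to WT5. In KO1 to KO5 it measured 7.28, 6.96, 5.61, 8.17 and 9.83 FPKM. In 4 of 5 KO libraries the value was above every WT library, and the library labelled KO3 sat within the WT range. The means were 5.75 ± 0.49 and 7.57 ± 1.56 FPKM (SD, n = 5 each), a 1.32-fold difference of means and a log2 difference of 0.33 (SE 0.11). Leaving out the library labelled KO3 gave a KO mean of 8.06 ± 1.28 FPKM (SD, n = 4), and without KO5 the log2 difference was 0.24. Ptgs1 shares 148 of 3884 annotated exon bases with Gm43621, a predicted gene on the opposite strand.

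Ptgs2 (ENSMUSG00000032487, chromosome 1, 150100031 to 150108227, plus strand) was the most variable of the 5 in KO. It measured 2.48, 2.32, 2.04, 2.03 and 2.29 FPKM in WT1 to WT5, a narrow band. In KO1 to KO5 it measured 3.72, 2.20, 1.21, 3.39 and 5.86 FPKM. KO1, KO4 and KO5 were above all WT libraries, KO2 was among them, and the library labelled KO3 was below them all. The means were 2.23 ± 0.20 and 3.28 ± 1.75 FPKM (SD, n = 5 each; log2 difference 0.30, SE 0.23). The coefficient of variation between mice was 8.79% in WT and 53.5% in KO, against 6.25% and 6.07% from counting. Without KO5 the log2 difference was 0.11, and without the library labelled KO3 it was 0.52.

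Both cyclooxygenases kept the same order in each library, with Ptgs1 above Ptgs2 in all 10. The ratio of Ptgs1 to Ptgs2 was 2.58 ± 0.19 in WT and 2.77 ± 1.19 in KO (SD, n = 5 each). It ranged from 1.68 in KO5 to 4.63 in the library labelled KO3. Activity-induced genes such as Arc and Fos, the class of neuronal genes to which Ptgs2 belongs, had a sum of 139 to 254 FPKM in WT and 83.8 to 136 FPKM in KO, below all WT libraries in each KO library. Of the 8 genes in that list, Egr1 was the 1 that fell, where 3.51% of all tested genes were called lower. Within the list, Npas4 and Fosb were highest in KO5, the library with the most Ptgs2, at 10.2 and 9.37 FPKM against at most 4.35 and 6.40 FPKM elsewhere, and their part in its Ptgs2 level was not tested.

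In the prostanoid pathway 18 of 25 listed genes were tested, 2 rose and 1 fell, with a median log2 difference of 0.14. The share called was 16.7%, against 13.3% of all tested genes. Mgll, the lipase that supplies brain arachidonic acid from endocannabinoid, fell from 76.7 ± 9.74 to 60.6 ± 8.07 FPKM (SD, n = 5 each; log2 difference -0.34, limma adjusted p = 0.0460). Pla2g4a, the cytosolic phospholipase that is the other source of arachidonic acid, measured 0.92 ± 0.15 and 1.18 ± 0.23 FPKM and did not pass (limma adjusted p = 0.194). Ptgds, the lipocalin-type prostaglandin D synthase of meninges and oligodendrocytes, rose from 263 ± 39.4 to 405 ± 83.1 FPKM (SD, n = 5 each; log2 difference 0.61, limma adjusted p = 0.0234). With the olfactory bulb markers as a covariate and without the library labelled KO3, the log2 difference of Ptgds was 0.29 (limma adjusted p = 0.226). Markers of mural cells and fibroblasts, which include meningeal genes, summed to between 46.8 and 52.6 FPKM in WT and between 50.5 and 84.8 FPKM in KO, 1 of the 6 rose, and their part in the rise of Ptgds was not tested. Ptgr1, which inactivates leukotrienes and prostaglandins, was the other gene that rose (log2 difference 0.39, limma adjusted p = 0.0482), but it did not pass with median-of-ratios scaling (limma adjusted p = 0.0646). Its WT mean of 0.37 FPKM was under the filter, so Ptgr1 was tested only through its KO mean of 0.82 FPKM. Ptges, the inducible prostaglandin E synthase that works with COX-2, measured 1.44 ± 0.22 and 1.94 ± 0.30 FPKM and did not pass (limma adjusted p = 0.0706), but did without the library labelled KO3 (log2 difference 0.34, limma adjusted p = 0.0129).

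Other proteins proposed as tracers of neuroinflammation gave 1 called gene among 7 tested of 12 listed. The share called was 14.3%, near the 13.3% of all tested genes. Folr2, a folate receptor of macrophages, rose from 0.45 ± 0.20 to 1.14 ± 0.28 FPKM (SD, n = 5 each; log2 difference 0.56, limma adjusted p = 0.0205). Its WT mean was under the filter of 0.5 FPKM, so Folr2 was tested only through its KO values. Csf1r, the growth factor receptor of microglia, measured 26.6 ± 2.55 and 30.5 ± 2.86 FPKM (limma adjusted p = 0.112). P2ry12, the ADP receptor of homeostatic microglia, measured 11.6 ± 0.83 and 10.4 ± 1.59 FPKM (limma adjusted p = 0.245). Without the library labelled KO3, 3 genes of this list were called higher, and 26.0% of all tested genes were called.

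**Figure D3:**
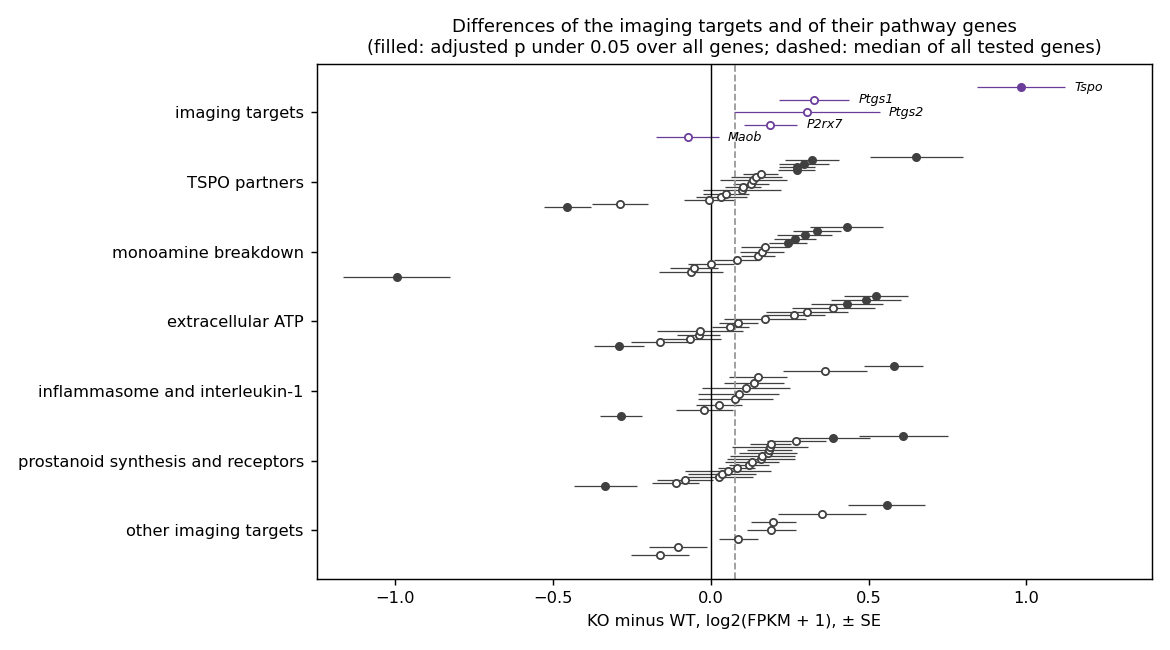
KO minus WT difference on the log2(FPKM + 1) scale with its SE for the 5 imaging targets and for the tested genes of 6 pathway lists, filled where the limma adjusted p was under 0.05 over all genes, with the median of all tested genes dashed at 0.08. Tspo lies at 0.98, beyond all pathway genes on the positive side, and Aldh1a1 at -0.996 is the lowest.

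All 5 imaging targets were among the 14497 genes tested, and 1 of them, Tspo, was among the genes called in KO against WT, where 13.3% of all tested genes were called, 9.77% as higher and 3.51% as lower. Because the members were named with this contrast known, nothing is read from that count or from the members' calls in the other fits given here, which use the same libraries and are descriptions. Tspo was also the 1 member whose groups did not overlap, against 7.55% of all tested genes, of which those with all KO values above all WT values made up 5.7% of the genes tested. Without the library labelled KO3, Tspo, Ptgs1 and Ptgs2 were called as higher, where 26.0% of all tested genes were called and 19.6% were higher. Adding the olfactory bulb covariate to that fit left the same 3 called, against 10.9% of all genes. With that covariate in all 10 libraries, 0 members and 0 genes were called. Tspo and Ptgs1 were called with the replicate number as a block, against 8.77% of genes, and with a Y-linked covariate, against 14.2%. Counting each pathway gene once, 17 of 76 tested rose and 5 fell, against 1417 and 509 of all genes. With median-of-ratios scaling those counts were 9 and 6 for the pathway genes and 608 and 945 for all genes, so the balance of directions rests on the scaling. Without WT1, without KO2 or without KO4 limma called 2 genes in all, 0 members and 0 pathway genes, although 32, 34 and 34 of the 76 pathway genes had an unadjusted p under 0.05. The adjusted p of the 18 called pathway genes picked by the naming rule ranged from 0.0514 to 0.116 in those 3 fits. With the olfactory bulb covariate and without the library labelled KO3, Dbi, Aldh1a1, Aldh3a2, Nt5e, Panx1, Panx2, Il1rap, Ptgds and Mgll were no longer called (limma adjusted p from 0.0503 to 0.226).

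The order of the targets by level differed between the groups. In WT the order of means was Maob, Ptgs1, Ptgs2, Tspo and P2rx7. In KO it was Ptgs1, Maob, Tspo, Ptgs2 and P2rx7. In WT the step from Ptgs1 at 5.75 FPKM to Ptgs2 at 2.23 FPKM was the 1 between neighbours whose libraries did not overlap. In KO that step was between Maob at 7.13 FPKM and Tspo at 4.94 FPKM. Maob was above Ptgs1 in 5 of 5 WT libraries, although the ranges overlapped through WT3. The other neighbours overlapped and were not in the same order in every library, and Tspo, Ptgs2 and P2rx7 were nearly level in WT.

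The 5 targets did not vary as 1 block across the 10 libraries. Ptgs1 and Ptgs2 varied most alike, with a Pearson r of 0.87 on log2 levels over 10 libraries (Spearman rho 0.84), 0.91 after the group means were removed, and 0.63 without the 2 libraries farthest from the median, KO4 and KO5. Tspo and Ptgs1 had r = 0.77, which was 0.52 after the group means were removed. Maob had r between -0.41 and -0.01 with the other 4. All points come from the same 10 libraries and share their depth and genotype, 10 pairs were computed, and the values are given as a description.

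For each target the 3 tested genes with the most similar pattern over the 10 libraries were listed by Pearson r, without predicted genes. Picking the highest r from a search of 14497 tested genes over 10 libraries favours high values by itself. For Tspo the 3 genes were M6pr (r = 0.98), Serpinf1 (r = 0.98) and Ly6g6e (r = 0.97), with r of 0.90, 0.89 and 0.86 after the group means were removed. Ly6g6e had a WT mean of 0.37 FPKM, under the filter, and was tested only through its KO mean of 1.70 FPKM. For Ptgs1 they were Bcl10 (r = 0.98), Gadd45b (r = 0.97) and Vcam1 (r = 0.97), with r of 0.97, 0.98 and 0.95 after the group means were removed. For Ptgs2 they were Slc35f6, Megf6 and Ccnf (r = 0.96, 0.96 and 0.95), of which Ccnf had r = -0.11 within WT and 0.99 within KO. For P2rx7 they were Acot6, Coa6 and Lin7c (r = 0.94, 0.94 and 0.93). Maob had the weakest likeness, with Gas2l1, Pon2 and Fap at r = 0.83, 0.82 and 0.81.

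Cell type markers were set beside the targets, where 13.3% of all tested genes were called. Among 10 microglial markers Aif1, C1qa and Sall1 rose, and their sum was 142 to 173 FPKM in WT and 168 to 227 FPKM in KO. Among 8 astrocyte markers Aqp4 rose, and the sum was 702 to 812 FPKM in WT and 665 to 812 FPKM in KO. All 5 tested of 6 reactive astrocyte markers rose, with a sum of 96.2 to 135 FPKM in WT and 127 to 804 FPKM in KO. Gfap, with a mean of 97.9 FPKM in WT and 427 FPKM in KO, made up most of that sum. None of the 4 tested of 7 markers of border macrophages and monocytes passed, and their sum was at most 5.76 FPKM, while the neutrophil marker Ly6g was at 0 in every library.

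Tspo had r = 0.92 with the mean log2 level of reactive astrocyte markers over the 10 libraries (rho 0.88, and 0.84 without KO4 and KO5), and r = 0.78 with that of microglial markers. After the group means were removed these were 0.70 and 0.26. With reactive astrocyte markers Tspo had r = -0.30 within WT and 0.92 within KO (5 libraries each). Ptgs1 had r = 0.95 with astrocyte markers (rho 0.92, 0.84 without KO4 and KO5, 0.94 after the group means were removed) and 0.52 with microglial markers (-0.02 after the group means were removed). Ptgs2 had r = 0.83 with astrocyte markers (0.82 after the group means were removed). Olfactory bulb markers had r = 0.10 with Ptgs1 and -0.16 with Ptgs2 over the 10 libraries. These were -0.67 and -0.60 after the group means were removed. With activity-induced genes Ptgs2 had r = -0.05 over the 10 libraries, 0.26 after the group means were removed, 0.84 within WT and 0.26 within KO (5 libraries each). Oligodendrocyte markers, of which none of 5 passed, had r = -0.87 with Tspo and -0.85 with Ptgs1, and their sum was 1448 to 1812 FPKM in WT and 1099 to 1641 FPKM in KO. In all, 75 relations between a target and a marker list were computed. The part of any of these cell types in the differences of the targets was not tested.

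**Figure D4:**
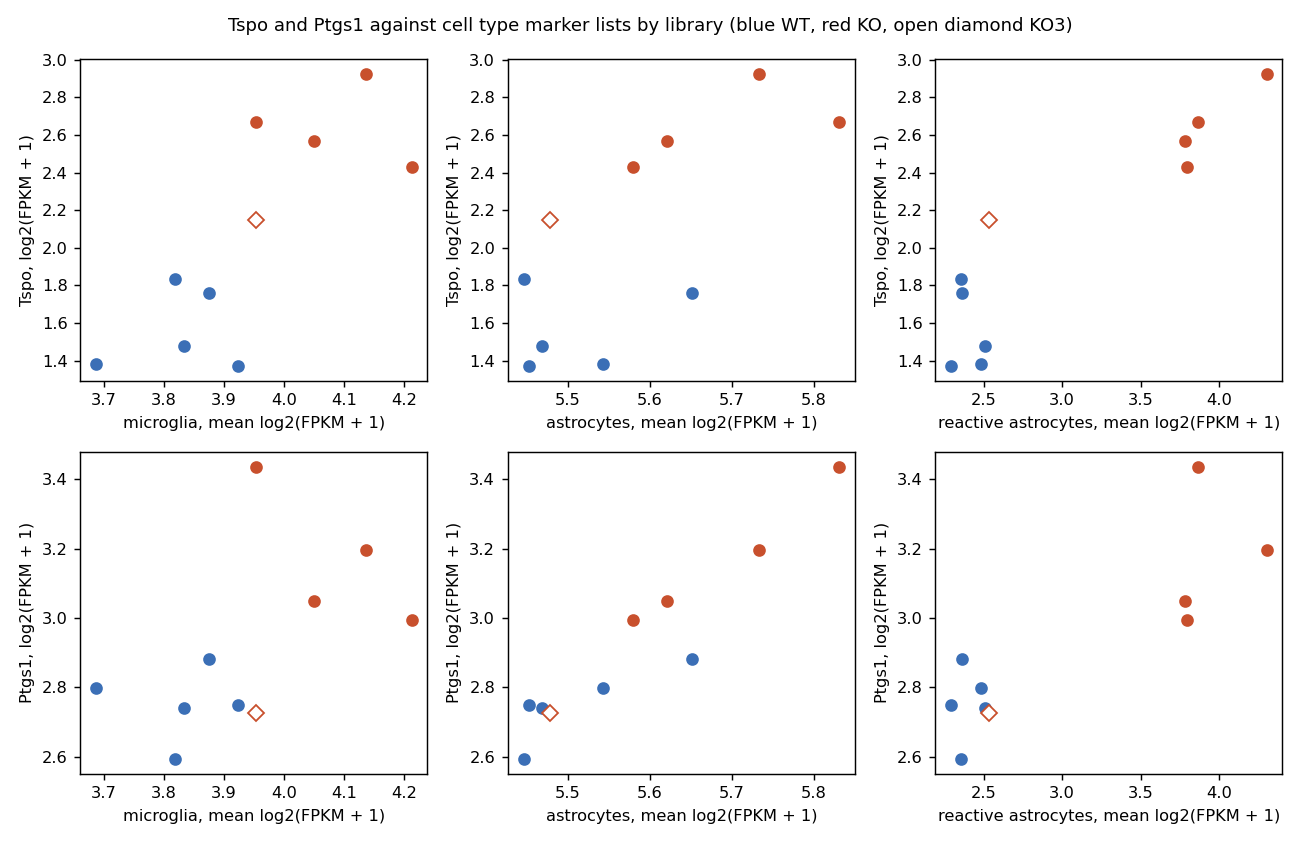
Tspo (top) and Ptgs1 (bottom), log2(FPKM + 1), against the mean log2(FPKM + 1) of microglial, astrocyte and reactive astrocyte markers, 1 point per library, WT in blue, KO in red, the library labelled KO3 as an open diamond. Ptgs1 follows the astrocyte markers across both groups, r = 0.95, and in the panel of Tspo against reactive astrocyte markers that library sits beside the WT points on the x axis and above them on the y axis.

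The differences of the targets were recomputed with other processing. Tspo ranged from 0.89 without KO4 to 1.08 without the library labelled KO3 when single libraries were left out. Ptgs2 ranged from 0.11 to 0.52, Ptgs1 from 0.24 to 0.42, P2rx7 from 0.16 to 0.25 and Maob from -0.18 to -0.04 in the same fits. With the olfactory bulb markers as a covariate Ptgs1 was 0.55 and Ptgs2 was 0.75, larger than without it, while Tspo was 0.96.

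**Figure D5:**
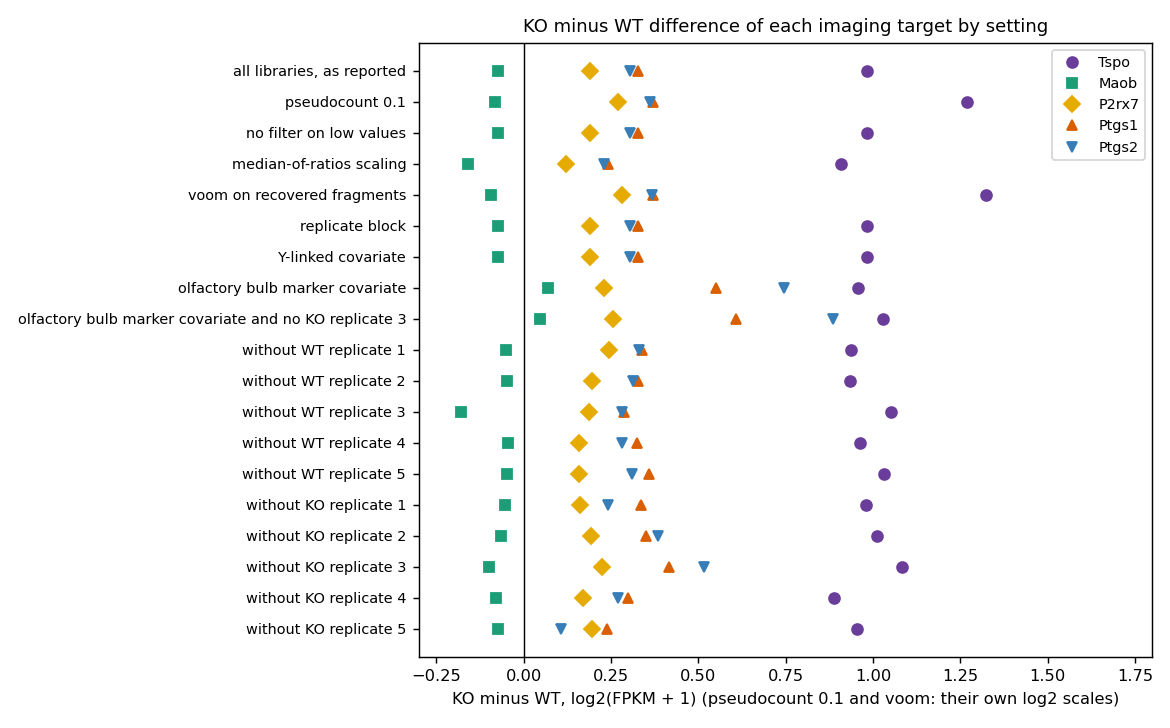
KO minus WT difference of each target on the log2 scale of each fit, under every setting tried. Tspo lies between 0.89 and 1.32 in all of them, Maob lies below 0 except with the olfactory bulb markers as a covariate, and Ptgs1 and Ptgs2 move most with that covariate.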

How the data were processed

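The NEBNext Ultra kit was used on RNA of 10 motor cortices, as the labels' protocols state. The authors deposited FPKM values, 1 per gene and library, beside gene positions and lengths. Build mm10 and the tool DESeq2 appear in the submitters' processing notes without a stated use. Aligner, counter and annotation are not given in the sources here, and strand use is not stated, so antisense reads cannot be told apart. FPKM times gene length gave whole fragments in 100% of values above 0 (tolerance 0.02), and 45 library pairs differed beyond sampling noise (lowest chi-square per gene 6.80). GENCODE M21 held 34490 of 35275 gene identifiers.

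Limma 3.58.1 (R 4.3.3; lmFit and eBayes with trend) was fitted to log2(FPKM + 1) of the 14497 genes whose mean reached 0.5 FPKM, with genotype alone, and the two-sided p-values were adjusted over all of them by Benjamini-Hochberg, with a threshold of 0.05. Log2 differences understate the change of low genes. Nothing in the labels says how mice were bred, so p-values measure the spread between these 10 samples. The exact permutation test ran over 252 assignments (126 without 1 library).

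The members, the gene lists and the motifs were chosen with earlier results of these data known. Named were the members, Tmem259, Maoa, Tspo2, Dbi, Nlrp3, Il1b, Ptges and Pla2g4a, up to 4 called genes with the lowest p per pathway list (1 of them is not reported here), the 3 genes most like each member, and markers beside a result. P2rx4, Csf1r, P2ry12, Mcat, Vdac1, Vdac3, Odc1 and Sat1 were named after their values were seen. Alternatives were the pseudocount, the filter, scaling, voom on recovered fragments, a replicate block, covariates and each library left out.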

Additional observations from a re-analysis of the deposited data

Results flagged for a closer look

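In 62 groups of 5 libraries examined, 5 held a sample far from the others of its group, where chance gives about 1 in 20. Maob was 5.39 FPKM in WT3, while the other WT libraries lay between 8.14 and 8.27 FPKM. The ratio of Maob to Maoa was 0.857 in WT3 against 1.27 to 1.38 in the other WT libraries, and 1.17 in the library labelled KO3 against 0.789 to 0.854 in the other KO libraries. Tspo2 was 0.0139 FPKM in WT3, from 1 fragment, and 0.0346 FPKM in KO1, from 3 fragments, and had 0 fragments in the other libraries, so both are at the limit of counting.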

How the results depend on the processing

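With all 10 libraries 1926 genes, 1 imaging target and 6, 6, 4, 2, 3 and 1 genes of the 6 pathway lists (translocator partners, monoamine breakdown, extracellular ATP, inflammasome, prostanoid, other tracers) were called in limma. Without the filter on low values the counts were 465 genes and 3, 1, 1, 1, 0 and 1 in the lists (44 of 100 pathway genes had an unadjusted p under 0.05), and more genes were tested. With median-of-ratios scaling monoamine breakdown had 2. With the olfactory bulb markers as a covariate limma called 0 genes, 0 targets and 0 in each list, although 2950 genes had an unadjusted p under 0.05. With that covariate and without the library labelled KO3, 3 targets and 3, 2 and 1 genes of the monoamine, ATP and inflammasome lists were called, and 9 of the 18 called genes picked by the naming rule were kept, and Dbi, Aldh1a1, Aldh3a2, Nt5e, Panx1, Panx2, Il1rap, Ptgds and Mgll were not. With the Y-linked covariate 2 targets, Tspo and Ptgs1, and 1 prostanoid gene were called. The cause of these changes was not tested.

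Replicate numbers were taken from the titles. Deviations of same-numbered libraries correlated at 0.14, -0.04, -0.06, 0.14 and 0.11, and not every library was most like its own number, so the numbers do not pair the mice. With the replicate block the counts were 1271 genes, 2 targets, 2 ATP genes and 1 prostanoid gene, and Panx1, Panx2, Mgll and Ptgr1 were not called.

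Tspo differed by 1.27 with a pseudocount of 0.1 and by 1.32 with voom. Ptgs1 differed by 0.55 and 0.61, and Ptgs2 by 0.75 and 0.89, with the olfactory bulb covariate, first in all 10 libraries and then in 9 (no KO3). Single libraries left out gave 2 to 3763 genes, 0 to 3 targets, and 0 to 8, 0 to 7, 0 to 6, 0 to 3, 0 to 4 and 0 to 3 genes in the 6 lists. Tmem259 had log2 differences from -0.42 to -0.17 and passed without the library labelled KO3 (limma adjusted p = 0.0278). That library had the highest Tmem259 of all, so leaving it out favours a fall. The exact permutation test without it gave p = 0.0556. Depth limits Tspo most, since its WT values rest on 38 to 50 fragments.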
